A study of Bos taurus with 2 samples.

Results

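Growth factors and their receptors were read by 95 probes of 37 genes, among 43639 probes of the bovine Agilent array. The genes were chosen by symbol alone: the FGF, PDGF, VEGF, ERBB and neuregulin families, the IGF binding proteins, and single genes such as AREG, BTC, HBEGF, IGF1, IGF2, HGF and MET. The rule used no measured value. The array names its probes by accession, and the RefSeq table of the bovine assembly gave a symbol to 20587 probes (47.2%). Of 69 symbols in that table that belong to these families, 32 had no probe with a matching accession and were not analysed here, among them EGFR, ERBB2, FGFR2, FGFR4, PDGFRA, IGF1R, INSR, FGF7 and FGF10. On arrays, the study set the muzzle of 1 light-muzzle HanWoo cow (tissue colour labelled Yellow) against that of 1 dark-muzzle HanWoo cow (labelled Black). Both cows were female and 30 months old. The front part of the muzzle was taken whole, so each RNA is a mixture of all cell types of that piece. Each RNA was hybridised to 1 array that is read in 1 colour, and both arrays lay on the same slide. There were therefore no replicate arrays, no test was made, and each ratio is a difference between 2 animals. By real-time RT-PCR in larger groups of cows, the study reports FGF4, FGF13 and PDGFRB as higher in dark muzzles. Those measurements were not re-analysed here.

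Growth factors are secreted proteins that bind receptors in the cell membrane, most of which are tyrosine kinases. Binding pairs the receptors, which then phosphorylate each other and pass the signal on through RAS and ERK kinases and through PI3K and AKT. In skin, EGF-type ligands drive the growth and repair of keratinocytes, FGF ligands pass between dermis and epidermis, PDGF ligands act on fibroblasts and vessel wall cells, and VEGF ligands act on endothelium. The insulin-like growth factors circulate and act locally, held by binding proteins that prolong or block their action.

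The measurement is the processed signal of a spot, an intensity from which the scanner software has subtracted the background. A level is the log2 of that signal relative to the 75th percentile of its array, so that a spot at that percentile has a level of 0. Ratios are log2 differences, dark-muzzle minus light-muzzle, and a ratio above 0 means a brighter spot in the dark-muzzle cow. Of the 95 probes, 86 were well above background in both cows, 2 only in the dark-muzzle cow and 7 in neither, and no member spot was saturated or marked as an outlier. For the probes above background in 1 cow only, the ratio is given as a lower bound. For it the dim side was given the lowest level of any probe well above background on its array, or its own level if higher. This bound is nominal, since some probes above that lowest level were not well above background. Feature Extraction gives each signal an error, from which the error of a ratio was between 0.20 and 0.40 over the 86 probes, with a median of 0.21. This is a technical error of single spots and holds no difference between animals. Levels of different probes cannot be compared, since each binds with its own strength.

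At a threshold of 2-fold (a log2 ratio of 1), 6 of the 88 probes with a ratio (6.82%) were brighter in the dark-muzzle cow, beside 9.76% of all probes on the array. These were both probes of FGF13, the probes of AREG and HBEGF, and 1 probe each of FGF4 and PDGFRB. None of the 88 was at least 2-fold lower, beside 7.17% of all probes. These counts depended on the processing: 1 probe was brighter past 2-fold under normexp, another background correction, and 1 to 3 probes were dimmer past 2-fold under quantile normalization, cyclic loess, the 50th percentile shift or no shift. By gene, 3 of 34 with a ratio were at least 2-fold higher (FGF13, AREG and HBEGF), beside 9.34% of all genes. Of the 34, 0 were at least 2-fold lower, beside 7.64% of all genes. Probes without a symbol were grouped by accession, so "all genes" here and below includes unmatched accessions. The 86 probes measured in both cows had a median ratio of 0.14 with an interquartile range from -0.28 to 0.63, and all measured probes had a median of 0.0037 with an interquartile range from -0.35 to 0.40. Of the 86 probes, 45 differed by more than 2 times their own error, 32 of them higher and 13 lower, a share of 52.3% beside 43.1% of all probes measured in both cows. FGF5, IGFBP1 and IGFBPL1 had no probe above background and have no ratio.

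**Figure D1:**
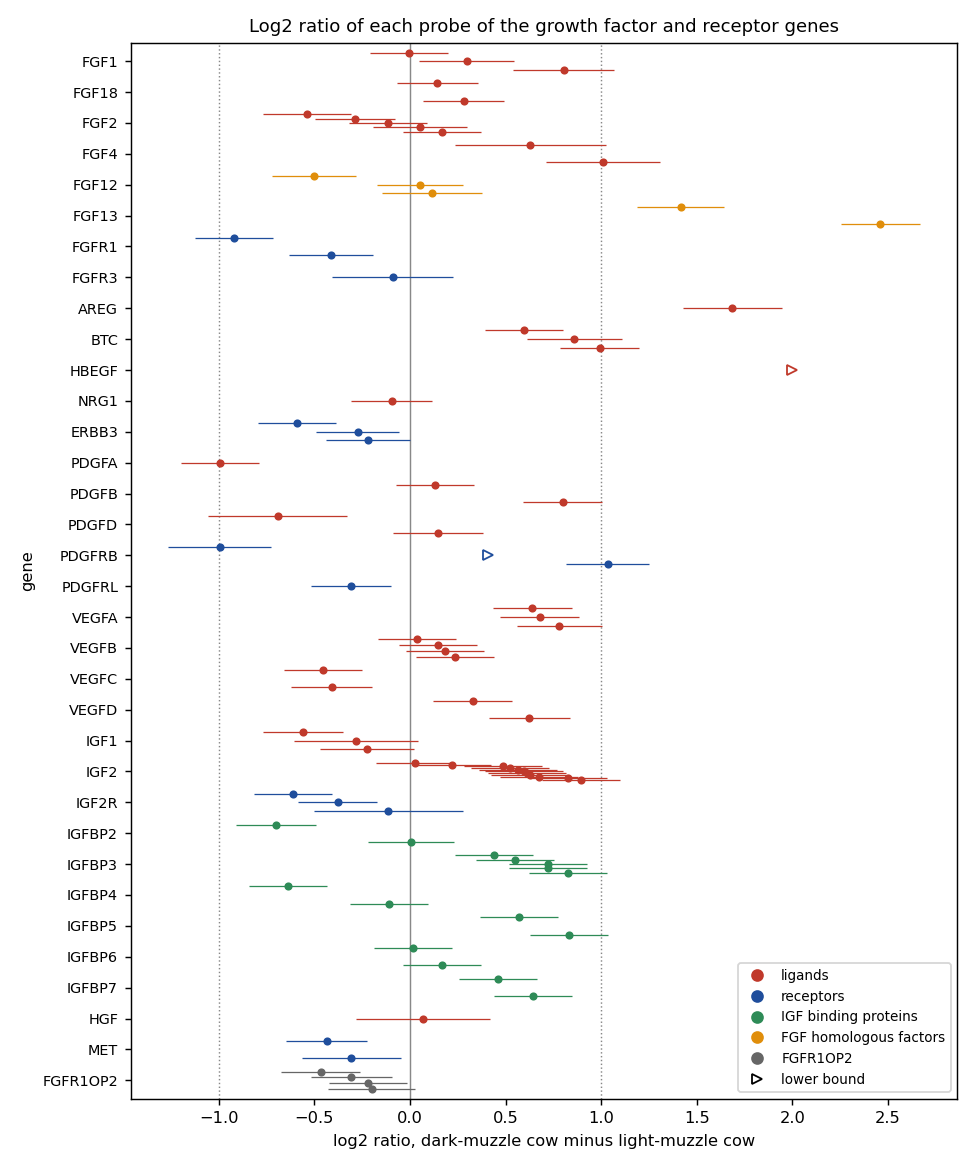
Log2 ratio (dark-muzzle minus light-muzzle cow, horizontal axis) of every probe with a ratio, by gene; points are probes measured in both cows with the technical error of the spot as a bar, open triangles are lower bounds, and dotted lines mark 2-fold. FGF13, AREG and HBEGF lie wholly beyond 2-fold, the probes of IGF2, IGFBP3 and VEGFA all lie above 0, and the probes of FGFR1, ERBB3, IGF2R and MET all lie below 0.

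**Figure D2:**
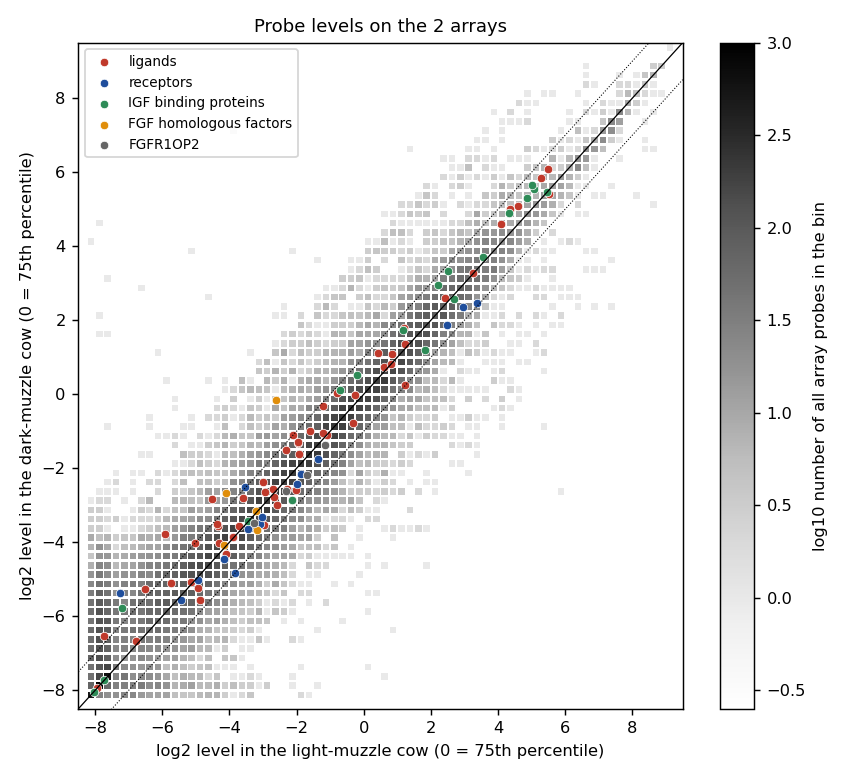
Log2 level of each probe in the light-muzzle cow (horizontal axis) and in the dark-muzzle cow (vertical axis), where 0 is the 75th percentile of the array; grey squares count all 43639 probes, coloured points are the 95 growth factor and receptor probes, the solid line marks equal levels and the dotted lines 2-fold. The coloured points follow the solid line over the whole range of levels, and those beyond 2-fold all lie below 0 in the light-muzzle cow.

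Of 15 listed secreted fibroblast growth factors, 5 had a matched probe, and among these FGF4 was the one with a probe past 2-fold. The others, among them FGF7, FGF10 and FGF16 that the study lists as changed, were not analysed here. FGF4, a ligand of early development and limb outgrowth, had processed signals of 35.1 in the light-muzzle and 70.4 in the dark-muzzle cow on 1 probe, a ratio of 1.01. Its other probe had signals of 21.6 and 33.2, a ratio of 0.63 with an error of 0.40. Both probes were dim, with levels between -5.73 and -4.01, where -5.78 was the detection limit of the light-muzzle array. The first ratio was short of 2-fold under normexp (0.52), cyclic loess (0.78), quantile normalization (0.84) and the 50th percentile shift (0.99). Of the 17 growth factor probes with a level under -4 in the light-muzzle cow, 4 passed 2-fold with the dark-muzzle spot brighter, and 18.6% of all probes that dim did.

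FGF1, which binds all FGF receptors, had signals of 536 in the light-muzzle and 530 in the dark-muzzle cow on its brightest probe, a ratio of -0.0069, and ratios of 0.30 and 0.80 on its other probes. FGF18, a ligand of cartilage, bone and hair follicle, had ratios of 0.14 and 0.28. FGF2, which is stored in the extracellular matrix and stimulates fibroblasts and endothelium, was read by 5 probes. Its ratios ran from -0.54 to 0.17, with 3 below 0 and 2 above, and the mean of -0.14 ± 0.28 (SD between probes, n = 5 probes) is smaller than the spread between its probes. The probe with the brightest signal, 52671 in the light-muzzle and 48403 in the dark-muzzle cow, had a ratio of -0.11. The probes of FGF1 and FGF2 thus fell on both sides of 0, and neither probe of FGF18 differed by more than 2 times its error. FGF5, known as an inhibitor of hair growth, gave signals of 4.62 and 4.67, not well above background in either cow.

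FGF13 (NM_001098892) had the probe with the highest ratio among these genes. It belongs to the FGF homologous factors, which are not secreted, do not act through FGF receptors and bind voltage-gated sodium channels inside the cell. On 1 probe its signal was 185 in the light-muzzle and 1015 in the dark-muzzle cow, a ratio of 2.46 with an error of 0.21 (5.51-fold). On the other it was 67.0 and 178, a ratio of 1.42 with an error of 0.23 (2.67-fold). The probes differed from each other by 1.04, more than either error, but both lay past 2-fold. The mean was 1.94 ± 0.74 (SD between probes, n = 2 probes), and 2.76% of all genes had a value as high. Under normexp the ratios were 2.19 and 0.94. FGF12, of the same subfamily, had ratios of -0.50, 0.052 and 0.11 on its 3 probes, so FGF12 did not share the difference of FGF13.

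The FGF13 values stand beside those of skeletal muscle genes. Of 16 listed muscle markers, 12 had a probe, all 12 were well above background in both cows, and 11 passed 2-fold, brighter in the dark-muzzle cow. Their median ratio was 3.01. The log2 of their summed signal relative to the 75th percentile was 9.42 in the light-muzzle and 11.98 in the dark-muzzle cow. The part of muscle in the FGF13 ratio was not tested. In these bulk samples more cells of a type and more RNA per cell cannot be told apart, for this and every gene below.

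The FGF receptors were lower in the dark-muzzle cow on each of their 3 probes. FGFR1 (NM_001110207), the main FGF receptor of mesenchymal cells, had signals of 11926 in the light-muzzle and 6269 in the dark-muzzle cow on its bright probe, a ratio of -0.92 with an error of 0.20. Its dim probe gave 135 and 101, a ratio of -0.41. The bright probe was 1.89-fold lower, by more than 2 times its error, and the dim probe was lower by less than 2 times its error of 0.22. FGFR3, which restrains bone growth and is expressed in keratinocytes, had signals of 37.3 and 34.8, a ratio of -0.090 that is within its error of 0.32. FGFR1OP2, which carries a similar symbol but is neither ligand nor receptor, had 4 probes with ratios from -0.47 to -0.20.

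The ligands of the EGF receptor were read by 5 probes, and each of them was brighter in the dark-muzzle cow. Amphiregulin (AREG, NM_001099092), an autocrine growth factor of keratinocytes, had a signal of 50.2 in the light-muzzle and 161 in the dark-muzzle cow. Its ratio was 1.69 with an error of 0.26, 3.22-fold higher, and 3.91% of all probes had a ratio as high. HBEGF (NM_001144090), a membrane-bound ligand shed during wound repair, had signals of 19.1 and 82.9, of which the light-muzzle one was not well above background. Its ratio was at least 4-fold. Each of these genes rests on 1 dim probe. Raw pixel medians of the spots were 92 and 195 for AREG and 70 and 152 for HBEGF, in the order light, dark. Over the 7005 probes above background in neither cow, that median was 49 in the light-muzzle and 60 in the dark-muzzle cow. Under normexp the ratio of AREG was 0.97 and the lower bound of HBEGF was 0.91, both short of 2-fold.

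Betacellulin (BTC, NM_173896), which binds EGFR and ERBB4, was read by 3 probes. Their signals were 378 and 568, 266 and 526, and 55.0 and 99.2 in the light-muzzle and the dark-muzzle cow. The ratios of 0.60, 0.99 and 0.86 gave a mean of 0.82 ± 0.20 (SD between probes, n = 3 probes), so the gene was higher by more than the spread between its probes while staying under 2-fold, although 1 of its probes passed 2-fold under cyclic loess. Neuregulin 1 (NRG1), a ligand of ERBB3 and ERBB4 made by nerve and mesenchyme, had signals of 178 and 166 on the probe above background, a ratio of -0.097 within its error of 0.21. ERBB3, which binds neuregulins and signals as a partner of other ERBB receptors, was lower on all of its 3 probes. Its bright probe had signals of 8833 in the light-muzzle and 5820 in the dark-muzzle cow, a ratio of -0.59 with an error of 0.20. The other ratios were -0.27 and -0.22, each less than 2 times its error. Of 12 listed keratinocyte markers, 8 had a probe and all were above background in both cows. Their median ratio was 0.43. KRT10, LORICRIN and IVL of the upper layers passed 2-fold, brighter in the dark-muzzle cow, while the basal keratins KRT5 and KRT14 had ratios of -0.52 and -0.41. The log2 summed level was 10.05 in the light-muzzle and 10.44 in the dark-muzzle cow. The part of keratinocytes in the EGF ligand ratios was not tested.

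The PDGF genes went in different directions. PDGFA (NM_001075231), the main ligand of PDGFRA and made by epithelium, had signals of 2696 in the light-muzzle and 1346 in the dark-muzzle cow. Its ratio of -0.99 (1.99-fold lower) lies just short of the threshold, and it was -1.01 when arrays were aligned at the 50th percentile. PDGFB, a ligand of PDGFRB made by endothelium, had ratios of 0.13 on a probe with signals of 2688 and 2920 and 0.80 on a probe with 231 and 400. PDGFD, another ligand of PDGFRB, had ratios of 0.15 and -0.69, and its probes thus disagreed in sign.

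PDGFRB (NM_001075896), the receptor of pericytes and fibroblasts, had the widest spread between probes of all these genes. One probe had a signal of 98.4 in the light-muzzle and 200 in the dark-muzzle cow, a ratio of 1.03 with an error of 0.22. Another had 80.0 and 39.9, a ratio of -0.99 with an error of 0.27. The third had signals of 7.46 and 27.5, the former not above background, and a lower bound of 0.41. Probes of the same accession therefore gave about 2-fold higher and about 2-fold lower expression. Their mean of 0.019 ± 1.43 (SD between probes, n = 2 probes) describes neither, and its sign changed under quantile and cyclic loess normalization and the 50th percentile shift. Each probe measured in both cows differed from 0 by more than 2 times its error. The study lists the gene as higher in the dark muzzle, the direction of the first of these probes and not of the second. PDGFRL, a related protein without a kinase domain, had signals of 316 and 254, a ratio of -0.31.

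VEGFA, VEGFB, VEGFC and VEGFD were each measured on at least 2 probes, and within each gene all probes had the same sign. VEGFA (NM_174216), which drives the growth of blood vessels, had signals of 292 and 452, 293 and 467, and 95.4 and 163 in the light-muzzle and the dark-muzzle cow. The ratios of 0.64, 0.68 and 0.78 gave a mean of 0.70 ± 0.073 (SD between probes, n = 3 probes). VEGFD, a ligand of lymphatic growth, was also higher, with ratios of 0.33 and 0.62. VEGFB, a ligand prominent in muscle and heart, had 4 probes between 0.034 and 0.24, with signals of 10891 and 11086 on the brightest. VEGFC (NM_174488), the other lymphatic ligand, was lower, with signals of 910 and 661 on 1 probe and 191 and 143 on the other. Its ratios of -0.45 and -0.41 gave a mean of -0.43 ± 0.030 (SD between probes, n = 2 probes). VEGFA and VEGFC thus differed in opposite directions, each by more than the spread between its own probes. The VEGFC ratio of -0.41 and the VEGFD ratio of 0.33 were within 2 times their spot errors of 0.21, as was each VEGFB ratio. The 10 endothelial markers with a probe of 12 listed were all above background in both cows and had a median ratio of 0.83, with LYVE1, CLDN5, PECAM1 and ESAM past 2-fold. Their log2 summed level was 4.90 in the light-muzzle and 5.93 in the dark-muzzle cow, and their part in the VEGF ratios was not tested.

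The insulin-like growth factors differed in direction. IGF2 (NM_174087), a growth factor of fetal tissue and of muscle, was read by 11 probes, and all 11 were brighter in the dark-muzzle cow. Its ratios ran from 0.024 to 0.90, with a mean of 0.55 ± 0.25 (SD between probes, n = 11 probes). Its brightest probe had signals of 50967 in the light-muzzle and 77553 in the dark-muzzle cow, a ratio of 0.61, and its dimmest 496 and 919, a ratio of 0.90. IGF1 (NM_001077828), the mediator of growth hormone, was lower on all of its 3 probes, with signals of 282 and 190, 67.0 and 56.9, and 37.1 and 30.3. Those ratios were -0.56, -0.23 and -0.28, of which the first alone exceeded 2 times its error. IGF2R, the receptor that clears IGF2 by uptake into the lysosome and has no kinase, was lower on its 3 probes, with signals of 6392 and 4149 on the brightest and ratios of -0.61, -0.38 and -0.11. The ligand IGF2 was thus brighter and its clearing receptor dimmer in the dark-muzzle cow on every probe of either gene, each by less than 2-fold. Of the IGF2R ratios the first alone exceeded 2 times its error, and the IGF2 ratios of 0.024 and 0.22 were also within that limit.

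**Figure D3:**
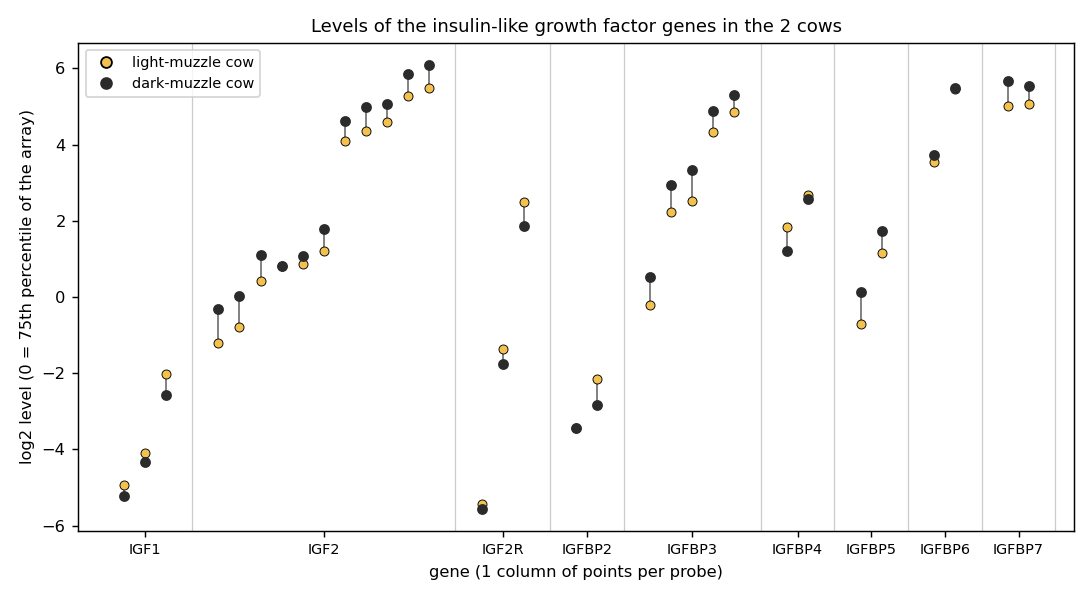
Log2 level (vertical axis, 0 is the 75th percentile of the array) of each probe of the insulin-like growth factor genes that was above background in both cows, in the light-muzzle cow (yellow) and the dark-muzzle cow (black), with 1 column per probe. Black points lie above yellow ones for all 11 probes of IGF2 and all 5 of IGFBP3, and below them for the 3 probes of IGF1 and of IGF2R.

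The IGF binding proteins split into higher and lower genes. IGFBP3 (NM_174556), the chief carrier of both ligands in blood, was brighter in the dark-muzzle cow on 5 of 5 probes, with ratios from 0.44 to 0.83 and a mean of 0.65 ± 0.16 (SD between probes, n = 5 probes). Its brightest probe had signals of 33301 in the light-muzzle and 44818 in the dark-muzzle cow. IGFBP5 (NM_001105327), abundant in muscle and bone, had signals of 2555 and 3767 on 1 probe and 700 and 1237 on the other, ratios of 0.57 and 0.83. IGFBP7, a matrix protein of vessels with weak binding to IGFs, had signals of 38457 and 52629 on 1 probe and 37134 and 57578 on the other, ratios of 0.46 and 0.64. These 3 genes were each higher by more than the spread between their probes.

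IGFBP6, which prefers IGF2, was nearly equal in the cows, with signals of 50347 and 50518 on its brighter probe and ratios of 0.013 and 0.17. IGFBP4, an inhibitor of IGF action, had ratios of -0.64 and -0.11, with signals of 4089 and 2609 on the probe that differed more. IGFBP2 had ratios of -0.70 and 0.0052. The probes of IGFBP2 and of IGFBP4 therefore disagreed by more than their errors of 0.20 to 0.23. IGFBP1, a liver protein, was above background on neither of its 2 probes, nor was IGFBPL1 on its only one. IGF2 and IGFBP5 stand beside the muscle markers given above, and the part of muscle in these ratios was not tested.

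HGF, a mesenchymal ligand of epithelium, was near the limit of detection. Its only probe above background had signals of 32.5 in the light-muzzle and 33.9 in the dark-muzzle cow, a ratio of 0.067 with an error of 0.35, so a difference was not detectable at this signal. Its 2 other probes were above background in neither cow. The HGF receptor MET (NM_001012999) had signals of 285 and 210 on 1 probe and 64.0 and 51.5 on the other, ratios of -0.44 and -0.31. MET was thus lower on both probes, by more than 2 times the error on the first and less on the second.

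Set side by side, most ligand probes of the chosen families lay above 0 and most receptor probes of those families below it. Of 14 receptor probes measured in both cows (FGFR1, FGFR3, ERBB3, PDGFRB, PDGFRL, IGF2R and MET), 13 had a ratio below 0 and 1, of PDGFRB, above. A further PDGFRB probe, with a lower bound of 0.41, is outside this count, and many receptors had no matched probe. Several ratios of both kinds, such as those of FGF18 and FGFR3, were within 2 times their error. Of 48 ligand probes 36 were above 0 and 12 below, and of 15 probes of IGF binding proteins 12 were above and 3 below. Over all probes measured on the array, 50.3% were above 0. Counted by gene, 11 of 17 ligands and 1 of 7 receptors had a mean above 0, with medians of 0.21 and -0.36. This grouping was made after the values had been seen and is a description. Receptor kinases outside the chosen families lay on both sides of 0. KDR, a VEGF receptor, had a ratio of 0.26, and TEK, TIE1 and NTRK2 had ratios of 0.57, 0.55 and 0.029. CSF1R, DDR1, DDR2, KIT and ROR2 had ratios of -0.25, -0.67, -0.020, -0.072 and -0.49. Probes of a gene share a transcript, IGF2 alone gives 11 of the ligand probes, and no receptor gene reached 2-fold in either direction. Among 27 genes with at least 2 measured probes, 13 had all probes above 0, 8 all below and 6 on both sides of it, a share of 22.2% beside 30.2% of all 7661 such genes.

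Other ligands and receptor kinases outside the chosen families gave 20 genes with a ratio, from a list of 37. In that list 2 passed 2-fold upward and 0 downward, with a median of 0.18 beside 0.017 over all genes. They were ANGPT2 and ANGPT1, the angiopoietins, which bind the endothelial receptor TEK. Beside the counts of this and the other gene lists, 9.34% of all genes were at least 2-fold higher and 7.64% at least 2-fold lower. ANGPT2 had a ratio of 2.03 ± 0.57 (SD between probes, n = 3 probes), with levels from -5.67 to -3.22 in the light-muzzle and from -3.07 to -1.37 in the dark-muzzle cow. ANGPT1 had one of 1.07 ± 0.16 (SD between probes, n = 3 probes). TEK itself had a ratio of 0.57, KIT one of -0.072 and its ligand KITLG, which guides melanocytes, one of 0.38.

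Cofactors and processing proteins of growth factors gave 13 genes with a ratio, from a list of 31, of which 1 was at least 2-fold higher and 3 lower, with a median of -0.083. FGFBP1, a secreted carrier that frees FGF2 from the matrix, was the higher one, with levels of -0.86 and 1.18 in the light-muzzle and 1.53 and 3.42 in the dark-muzzle cow on its 2 probes and a mean ratio of 2.32 ± 0.11 (SD between probes). The 3 lower genes were listed for their part in the processing of HGF, and an effect on HGF was not tested. HPN, a membrane protease that cleaves pro-HGF, had a ratio of -1.69 from 1 probe. SPINT2 and SPINT1, inhibitors of such proteases, had ratios of -1.51 ± 0.17 and -1.33 ± 0.49 (SD between probes, n = 2 probes each).

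Adaptors and RAS-ERK kinases gave 14 genes with a ratio, from a list of 27, of which 0 passed 2-fold in either direction, with a median of 0.28. The adaptor SHC1 had the lowest ratio, -0.41 ± 0.029 (SD between probes, n = 3 probes). The PI3K, AKT and MTOR list of 27 gave 11 genes with a median of -0.14. One of them was at least 2-fold lower, EIF4EBP1, a repressor of translation that MTOR inactivates, with a ratio of -1.89 ± 0.56 (SD between probes, n = 2 probes).

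Feedback inhibitors and early target genes gave 19 genes with a ratio, from a list of 36, and spread more widely. Of these, 2 were at least 2-fold higher, GRB14 (2.88), an adaptor that restrains the insulin receptor, and FOS (1.61), an immediate early transcription factor. EGR1, JUN and JUNB, also early genes, had ratios of -0.59, 0.51 and 0.30. The 4 lower genes were PHLDA1 (-2.57), ETV1 (-2.15), CCND1 (-1.05), the cyclin of the G1 phase, and CBLC (-1.03), a ubiquitin ligase of epithelium. CBLC was named after its value had been seen. PHLDA1, ETV1 and CCND1 rest on 1 probe each, and CCND1 and CBLC lay close to the threshold. DUSP6, a phosphatase that ERK induces and that switches it off, had a ratio of -0.54, and SPRY1, SPRY2 and SPRY4, further feedback inhibitors, lay between -0.30 and 0.14. The median of the list was 0.14.

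**Figure D4:**
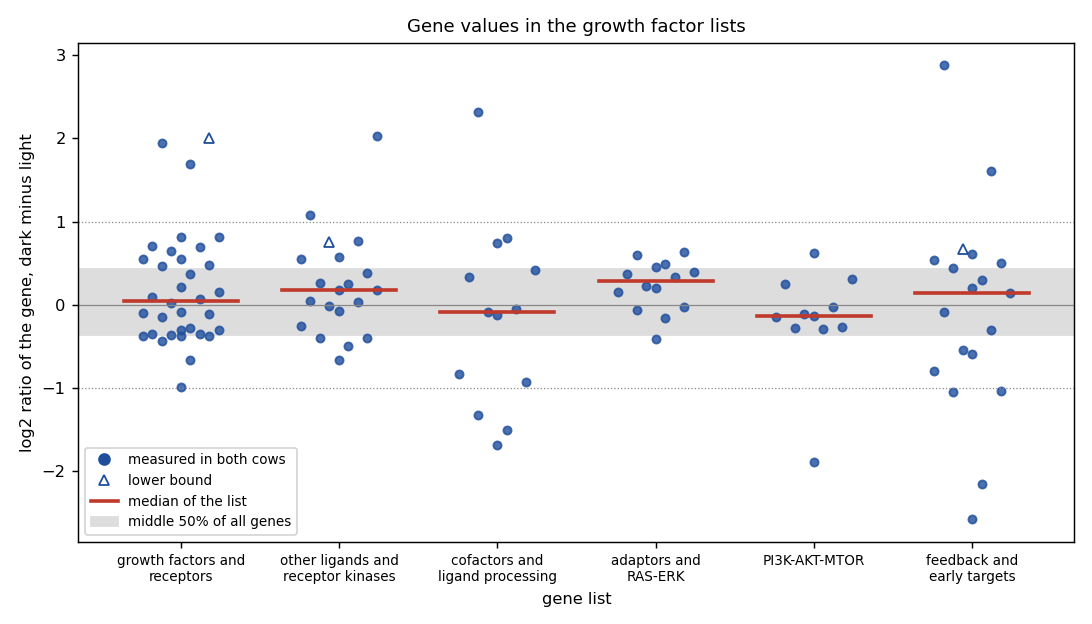
Log2 ratio (dark-muzzle minus light-muzzle cow, vertical axis) of each gene in the growth factor and receptor group and in 5 related lists; points are genes measured in both cows, open triangles lower bounds, red lines list medians, the grey band the interquartile range of all genes and dotted lines 2-fold. The medians of all 6 groups lie within the grey band, and the RAS-ERK genes stay within 2-fold.

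The arrays also differed in the markers of cell types in the muzzle, which stand beside all of the ratios above. Serous gland markers, 8 with a ratio of 12 listed, had a median ratio of -2.84 with 5 at least 2-fold lower and 1, BPIFA1 (1.29), at least 2-fold higher, and their log2 summed level was 9.03 in the light-muzzle and 5.18 in the dark-muzzle cow. Fibroblast markers, 10 of 12, had a median of -0.53 and summed levels of 9.29 and 8.81. Mural markers, 8 of 10, had a median of 0.19 with RGS5 and DES, the latter also a muscle gene, past 2-fold and summed levels of 6.68 and 8.13. Melanocyte markers, 8 of 12, had a median of 1.32 and summed levels of 1.77 and 2.69, and the light-muzzle array did not detect TYRP1 and EDNRB above background. Schwann cell, leukocyte and adipocyte markers had medians of -0.21, -0.17 and 0.61. Among all markers with a probe, ODAM was not above background in either cow and LEP not in the light-muzzle cow. The part of these cell types in the growth factor ratios was not tested.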

How the data were processed

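The members and gene lists were chosen with earlier results of these data known. Groups were taken from the labelled tissue colour. Per array, the authors deposited a scanner file written by Agilent Feature Extraction 10.7.3.1, whose processed signal (an intensity with the background taken off and, per the file headers, spatial and multiplicative trends removed) and signal error (an intensity too) were used. A second deposited table holds log2 values by probe, with column medians of -2.47 and -2.45, and the study's methods name GeneSpring for normalization without its settings. Over the member probes it differed from the levels used here by at most 0.00021, and it served as an alternative only.

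From the processed signals, log2 levels were shifted by the 75th percentile of the noncontrol spots (1144 for light-muzzle and 1137 for dark-muzzle). The 13 outlier spots of either array were dropped, and repeated spots of a probe averaged. The software marked 78.8% and 81.9% of noncontrol spots well above background. A gene value is the mean over its probes measured in both cows, otherwise its largest lower bound. The error of a ratio combines the relative errors of both signals. With 1 array per group no test was possible, and that number is what limits precision. Genes named in full were members with a probe past 2-fold and the brightest of each role, and, of other lists, up to 3 past 2-fold in each direction. Further members and list genes are named to account for the group and were chosen with their values seen.

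Probe accessions took their symbols from the RefSeq table of ARS-UCD2.0. An accession without a symbol was counted as a gene of its own in the values over all genes. The arrays were designed on another assembly, so no coordinates are given. Sequences were not used here.

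Alternatives were quantile and cyclic loess normalization (span 0.7), a 50th percentile shift, no shift, normexp with an offset of 50 on median pixel signals, other filters on dim probes, outlier spots kept, thresholds of 1.5-fold and 3-fold, genes in place of probes, and the brightest or the median probe of a gene. Quantile, loess and normexp values came from limma 3.58.1 in R 4.3.3, all else from pandas 2.3.3 and numpy 2.4.6 under Python 3.11.15.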

Additional observations from a re-analysis of the deposited data

How the results depend on the processing

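The number of growth factor and receptor probes past 2-fold and brighter in the dark-muzzle cow, 6 as reported, was 1 under normexp background correction (the brighter probe of FGF13), 10 without a filter on dim probes, 27 at 1.5-fold and 3 at 3-fold, and 3 when genes were counted. The number past 2-fold and dimmer, 0 as reported, was 3 under quantile normalization (FGFR1, PDGFD and PDGFRB), 1 under cyclic loess (PDGFRB), 2 under the 50th percentile shift and 2 with no shift (PDGFA and PDGFRB in both), and 8 at 1.5-fold. The counts at these other settings are given without the share of all probes at the same setting, so they show only how the calls moved. The cause of the normexp difference was not tested. The median ratio of 0.14 lay within the median spread between probes of a gene (0.21) under each of these settings. That spread describes single genes and does not measure the precision of a median over many probes. Over up to 12 alternatives, 26 of 34 gene values kept their sign in every one and 8 changed it in at least 1, with a reported ratio of at most 0.36. These were FGF1, FGF12, FGFR3, HGF, IGFBP6, NRG1, PDGFD and PDGFRB. No gene value past 2-fold changed direction. The FGF4 probe lost its call under 4 of these settings and a BTC probe gained one under cyclic loess. Low signal over background limits AREG, FGF4, HBEGF, HGF, FGFR3 and single probes of other genes, such as PDGFRB, PDGFD, IGF1 and IGF2R.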
